A study of Mus musculus with 12 samples.

Results

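p53, encoded in the mouse by Trp53, and 9 genes that answer to it or control it were examined in 12 RNA-seq libraries of cultured mouse melanocytic cells. The 10 genes are Trp53, Mdm2, Mdm4, Ccng1, Trp53inp1, Zmat3, Btg2, Phlda3, Gdf15 and Eda2r, taken by gene symbol from the 34513 genes counted. The libraries came from 3 lines, the nontumorigenic melanocyte line Melan-A and the melanoma lines B16F0 and B16F10, each as an untreated control and after SX-682, a compound that blocks the chemokine receptors CXCR1 and CXCR2. The 6 groups are represented by 2 libraries each. The dose and duration of SX-682 in these cultures are not given in the sources used here, and no vehicle is named for the controls. On GRCm38 all 10 are annotated as protein-coding genes. The regulators are Trp53 at chr11:69580359-69591873, Mdm2 at chr10:117688875-117710758 and Mdm4 at chr1:132959484-133030561. The intracellular targets are Ccng1 at chr11:40748552-40755311, Trp53inp1 at chr4:11156431-11174379, Zmat3 at chr3:32334792-32366014, Btg2 at chr1:134075170-134079120 and Phlda3 at chr1:135766119-135769136, and the cytokine and receptor genes are Gdf15 at chr8:70629393-70632456 and Eda2r at chrX:97333840-97377216. Each line stands for itself: Melan-A is a single line, B16F0 and B16F10 belong to the same B16 tumor series, and a difference between them is a difference between these cultures.

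p53 is a transcription factor that cells hold at a low level by steady destruction of the protein and that accumulates after DNA damage and other stress. MDM2 is the ubiquitin ligase that marks p53 for destruction, MDM4 is its relative that covers the activating domain of p53, and Mdm2 is itself transcribed by p53, which closes a feedback loop. Because the control acts largely on the protein, the level of Trp53 mRNA says little about p53 activity, and the mRNAs of its targets are the usual readout. The targets examined act in cell cycle arrest and growth restraint (Ccng1, Btg2, Zmat3), in cell death and autophagy (Trp53inp1), in restraint of AKT signaling (Phlda3), and outside or at the surface of the cell (the cytokine gene Gdf15 and the receptor gene Eda2r). Several of them are also transcribed by other factors; Gdf15 in particular is a known target of the ATF4 stress pathway.

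p53 binds DNA at paired copies of a short motif, the p53 consensus decamer. The promoters that held a match are shown here because they give the letters that p53 could in principle read next to these start sites. RefSeq promoters of the GRCm38.p6 assembly, which cover 250 bases before to 50 bases after a start, were found for 8 of the 10 genes, all but Trp53inp1 and Zmat3. A single such decamer occurred in 3 of the 8, those of Mdm2, Ccng1 and Trp53 itself, and is printed in capitals in a stretch of 60 bases on the gene's strand. The stretches lie at chr10:117710910-117710969 on the minus strand for Mdm2, at chr11:40755437-40755496 on the minus strand for Ccng1 and at chr11:69580259-69580318 on the plus strand for Trp53, with the first base of the decamer 186, 185 and 75 bases before the start.
Mdm2: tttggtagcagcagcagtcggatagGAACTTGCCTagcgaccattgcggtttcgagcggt
Ccng1: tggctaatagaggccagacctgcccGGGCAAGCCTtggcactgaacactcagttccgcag
Trp53: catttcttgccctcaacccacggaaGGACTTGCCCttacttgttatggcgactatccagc
For comparison, the promoter of Cdkn1a, the best known p53 target, held 2 of them, the nearer of them 51 bases before the start in chr17:29090903-29090962 on the plus strand.
Cdkn1a: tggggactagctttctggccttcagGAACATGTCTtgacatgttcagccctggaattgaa
Decamers on either strand were counted, and 9.55% of the 27025 genes with a promoter in the table held at least 1. No match says only that these letters are absent from this window, and p53 sites are often in introns or farther away.

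The libraries held between 48876982 and 85322092 counts, with a median of 66943832.5, and every library was closest to the other library of its group. A level is given below as CPM, the counts of a gene scaled to library size with TMM factors, which correct for differences in composition between libraries, and the floor of 3 counts in a library was 0.033 to 0.062 CPM. Differences were tested with edgeR's quasi-likelihood test on all 12 libraries, and a gene was called at a Benjamini-Hochberg adjusted p under 0.05 over the 18338 genes that passed the filter on low counts. All 10 genes passed that filter, Eda2r and Gdf15 through their B16 libraries. The spread between replicates was small (biological coefficient of variation 2.78%), and between 48.2% and 50.8% of all genes were called with SX-682 in a line. The labels do not say that the 2 libraries of a group are separate cultures, and the p-values measure only the spread between these libraries. Melanocyte markers were checked against the labels: Mlana, Dct, Tyrp1, Mitf and Sox10 were at 78 CPM or more in every library, whereas Tyr was at 0.253 to 0.892 CPM and Pmel at 7.53 to 8.7 CPM in Melan-A against 3900 to 5350 CPM of Pmel in B16. The summed CPM of the 7 melanocyte markers was 1340 to 1370 in untreated and 1350 to 1360 in treated Melan-A, far below B16. This sum was lower after SX-682 in both B16 lines, 18600 to 18700 against 15800 to 16000 in B16F0 and 24400 to 24500 against 14900 to 15200 in B16F10. Its part in the results below was not tested. Of the other cell types checked, the summed markers of keratinocytes and endothelial cells stayed at or under 3.49 CPM in every library, and those of fibroblasts were at 91.9 to 108 CPM in Melan-A and 8.43 to 16.7 CPM in B16, mainly Col1a1 and Col3a1 in Melan-A. The leukocyte sum was nearly all Cd68, which was at 15.9 to 16.1 CPM in untreated and 43.9 to 45.3 CPM in treated Melan-A.

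Without treatment, most of the genes stood higher in the B16 lines than in Melan-A. In B16F0, 7 of the 10 genes were higher than in Melan-A (Mdm2, Mdm4, Ccng1, Trp53inp1, Zmat3, Gdf15, Eda2r) and 3 were lower (Trp53, Btg2, Phlda3), where 75.9% of all genes tested were called, 35.3% higher and 40.6% lower in B16F0. In B16F10, 9 were higher than in Melan-A and only Btg2 was lower, where 74.2% of all genes were called, 33.4% higher and 40.8% lower. Eda2r and Gdf15 held at most 18 counts in any Melan-A library and passed the filter on low counts through their B16 libraries, so their differences from Melan-A support nothing here. Of the 8 genes with at least 10 counts in every library, 5 were higher in B16F0 and 7 in B16F10 than in Melan-A. A fit of the 12326 genes with that many counts called 5018 and 4813 of them higher. The median log2 difference of the 8 was 1.04 and 1.10, against -0.06 and -0.10 over all 18338 genes tested. That all-gene median was not taken over the genes with at least 10 counts in every library. Both comparisons use the same Melan-A controls. Between the melanoma lines, 9 genes were higher in B16F10 and only Mdm4 was lower, where 62% of all genes were called, 30.8% higher and 31.2% lower.

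**Figure D1:**
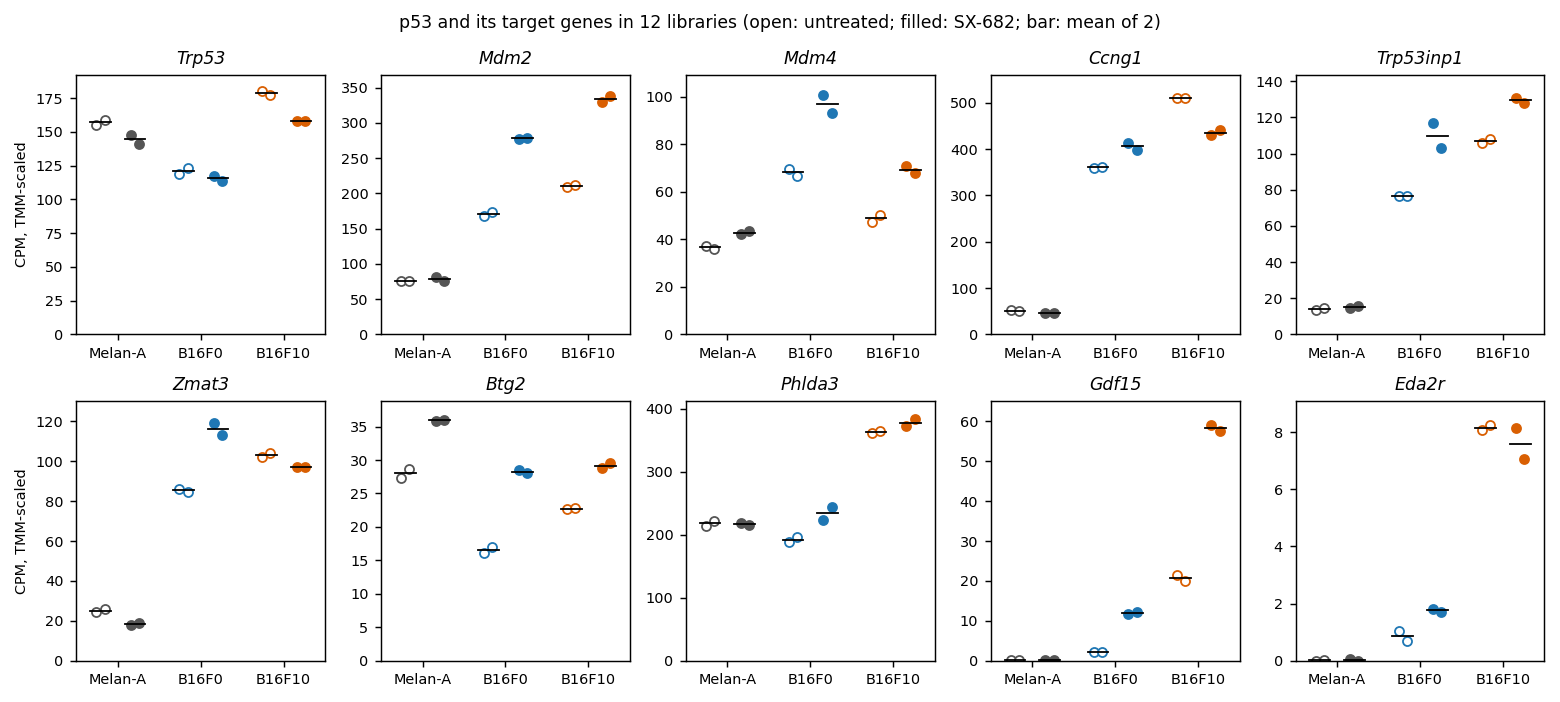
Level of each of the 10 genes in the 12 libraries, in TMM-scaled CPM on axes that start at 0 and differ between panels. Points are libraries (open for untreated, filled for SX-682), the bar is the mean of 2, and Ccng1, Trp53inp1, Zmat3, Gdf15 and Eda2r sit far lower in Melan-A than in both B16 lines.

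Trp53 itself was within 1.48-fold between untreated lines and changed by at most 1.13-fold with SX-682. Its untreated level was 155 and 159 CPM in Melan-A, 119 and 123 CPM in B16F0 and 180 and 177 CPM in B16F10. The order was therefore B16F0, Melan-A, B16F10, and each step passed the test, with B16F10 1.48-fold above B16F0 (log2 difference 0.56 ± 0.0299 SE, adjusted p = 2.9e-16). After SX-682 it was 148 and 141 CPM in Melan-A, 117 and 114 CPM in B16F0 and 158 and 158 CPM in B16F10. Both treated libraries were below both controls in every line. Such a separation was not counted over all genes, here or below, and by itself supports no change. The fall passed the test in Melan-A (log2 fold change -0.12 ± 0.0293 SE, adjusted p = 0.00068) and B16F10 (-0.18 ± 0.0298 SE, adjusted p = 5.8e-06). It did not pass in B16F0 (-0.06 ± 0.0308 SE, adjusted p = 0.09). In Melan-A the call was lost without the second SX-682 library (-0.083, adjusted p = 0.075). The test of a difference in this change among the 3 lines was not passed (adjusted p = 0.072), but it was with DESeq2 and with RLE scaling, which called all 10 genes, and the change in B16F10 was below that in B16F0 (difference -0.12 ± 0.0428 SE, adjusted p = 0.037).

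Mdm2, the inhibitor in the feedback loop, rose in both melanoma lines, and no rise passed the test in Melan-A. Its untreated level was 75.2 and 76.1 CPM in Melan-A, 168 and 174 CPM in B16F0 and 209 and 212 CPM in B16F10. SX-682 libraries held 81.7 and 75.7 CPM in Melan-A, 277 and 279 CPM in B16F0 and 330 and 338 CPM in B16F10. The Melan-A groups overlapped, while the treated B16 libraries stood well clear of their controls. The rise was 1.63-fold in B16F0 (log2 fold change 0.70 ± 0.0296 SE, adjusted p = 3.2e-18) and 1.59-fold in B16F10 (0.67 ± 0.0292 SE, adjusted p = 6.4e-18), against 0.06 ± 0.0321 SE in Melan-A (adjusted p = 0.15). The Melan-A value passed the test with upper-quartile scaling (0.086, adjusted p = 0.026) and without the second SX-682 library (0.119, adjusted p = 0.008). The difference of the change from that in Melan-A was 0.65 ± 0.0436 SE for B16F0 and 0.61 ± 0.0434 SE for B16F10, both past the test, whereas B16F10 minus B16F0 was -0.04 ± 0.0415 SE (adjusted p = 0.59).

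Mdm4, the second inhibitor, was the only member highest in untreated B16F0 and rose in all 3 lines. It stood at 37.4 and 36.1 CPM in untreated Melan-A, 69.8 and 66.9 CPM in B16F0 and 47.2 and 50.5 CPM in B16F10. With SX-682 it stood at 42.1 and 43.5 CPM in Melan-A, 101 and 93.1 CPM in B16F0 and 71 and 67.9 CPM in B16F10. Treated libraries lay above their controls in each line. The log2 fold change was 0.22 ± 0.0456 SE in Melan-A, 0.51 ± 0.0424 SE in B16F0 and 0.51 ± 0.0448 SE in B16F10, with adjusted p-values of 0.00014, 2e-11 and 5.3e-11. As for Mdm2, the change was larger in each B16 line than in Melan-A (difference 0.29 ± 0.0622 SE for B16F0 and 0.29 ± 0.0639 SE for B16F10), and the B16 lines did not differ by a margin that passed the test (-0.00 ± 0.0619 SE).

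Ccng1, which encodes cyclin G1, a partner of the phosphatase that acts on MDM2, stood several-fold higher in both melanoma lines. The untreated libraries held 51.8 and 50.3 CPM in Melan-A, 360 and 361 CPM in B16F0 and 510 and 511 CPM in B16F10. B16F0 was thus 7.06-fold and B16F10 10-fold above Melan-A (log2 differences 2.82 ± 0.0272 SE and 3.32 ± 0.0274 SE). After SX-682 the levels were 45.5 and 45.7 CPM in Melan-A, 413 and 399 CPM in B16F0 and 430 and 441 CPM in B16F10. The direction split: Ccng1 fell in Melan-A (log2 fold change -0.16 ± 0.0297 SE, adjusted p = 3e-05) and in B16F10 (-0.23 ± 0.024 SE, adjusted p = 1.7e-09) and rose in B16F0 (0.17 ± 0.0242 SE, adjusted p = 5.6e-07). The change in B16F10 was 0.40 ± 0.0341 SE lower on the log2 scale than that in B16F0 (adjusted p = 1.7e-10).

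Zmat3, which encodes an RNA-binding zinc finger protein with growth-restraining activity, split the same way between Melan-A and B16F0 and by a wider margin. Its untreated libraries held 24.2 and 25.7 CPM in Melan-A, 86.1 and 84.6 CPM in B16F0 and 102 and 104 CPM in B16F10. With SX-682 they held 18 and 19 CPM, 119 and 113 CPM, and 97.1 and 97 CPM. Zmat3 fell in Melan-A (log2 fold change -0.43 ± 0.0463 SE, adjusted p = 4.2e-09) and rose in B16F0 (0.44 ± 0.0362 SE, adjusted p = 1.4e-11), a difference of 0.87 ± 0.0587 SE between these lines. In B16F10 both treated libraries lay below both controls, but the value of -0.08 ± 0.0363 SE missed the threshold narrowly (adjusted p = 0.052). It passed with DESeq2 (-0.091, adjusted p = 0.029), with RLE scaling, without a filter, with at least 10 counts in every library, with the replicate block and in a separate fit, and not with upper-quartile scaling.

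Trp53inp1 encodes a nuclear protein that promotes p53-dependent cell death and autophagy. Its untreated level was 13.6 and 14.8 CPM in Melan-A, 76.6 and 76.5 CPM in B16F0 and 106 and 108 CPM in B16F10, so that the B16 lines were 5.4-fold and 7.57-fold above Melan-A. SX-682 gave 14.8 and 15.5 CPM in Melan-A, 117 and 103 CPM in B16F0 and 131 and 128 CPM in B16F10. It rose in B16F0 (log2 fold change 0.53 ± 0.0432 SE, adjusted p = 1.3e-11) and in B16F10 (0.27 ± 0.0421 SE, adjusted p = 1.9e-06), and the value in Melan-A was 0.10 ± 0.0609 SE (adjusted p = 0.18). The rise was larger in B16F0 than in B16F10 (difference B16F10 minus B16F0 -0.25 ± 0.0603 SE, adjusted p = 0.0014).

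Btg2, an antiproliferative gene whose product recruits the mRNA deadenylation machinery, was the only member lower in both B16 lines than in Melan-A. The untreated libraries held 27.3 and 28.7 CPM in Melan-A, 16.1 and 17 CPM in B16F0 and 22.7 and 22.8 CPM in B16F10. After SX-682 they held 35.9 and 36 CPM, 28.5 and 28 CPM, and 28.8 and 29.5 CPM, so the treated levels of the lines lay closer together than the untreated ones. Btg2 rose in all 3 lines, by 1.28-fold in Melan-A (log2 fold change 0.36 ± 0.0502 SE, adjusted p = 4.8e-07), 1.71-fold in B16F0 (0.77 ± 0.0561 SE, adjusted p = 9.9e-13) and 1.28-fold in B16F10 (0.36 ± 0.0545 SE, adjusted p = 1.9e-06). The rise was larger in B16F0 than in either of the others (adjusted p = 5.8e-05 and 0.00011).

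Phlda3, which encodes a pleckstrin homology domain protein that competes with AKT for the membrane, held the highest level per length of the 10 genes in every line. Its untreated level was 214 and 222 CPM in Melan-A, 188 and 196 CPM in B16F0 and 361 and 365 CPM in B16F10. With SX-682 it was 218 and 215 CPM in Melan-A, 224 and 244 CPM in B16F0 and 373 and 383 CPM in B16F10. Phlda3 rose in B16F0 (log2 fold change 0.29 ± 0.0313 SE, adjusted p = 4.5e-09), and that change differed from Melan-A (adjusted p = 2.5e-06) and from B16F10 (adjusted p = 0.00012). The values were -0.01 ± 0.0306 SE in Melan-A, where the groups overlapped, and 0.06 ± 0.0302 SE in B16F10 (adjusted p = 0.11). In B16F10 both treated libraries lay above both controls, and the value passed with upper-quartile scaling (0.092, adjusted p = 0.012) and in a separate fit (0.056, adjusted p = 0.01).

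Gdf15, a secreted cytokine of the TGF-beta superfamily, had the largest log2 fold change with SX-682 in each line among the members with a fold there. Untreated Melan-A held 7 and 9 counts (0.0811 and 0.0991 CPM), untreated B16F0 2.3 and 2.2 CPM and untreated B16F10 21.6 and 20 CPM. The step from Melan-A is a description only, since Gdf15 passed the filter on low counts through its B16 libraries. Between the untreated B16 lines, B16F10 was 9.23-fold above B16F0 (log2 difference 3.21 ± 0.0939 SE, adjusted p = 1.2e-22). With SX-682 it stood at 11.7 and 12.3 CPM in B16F0, a 5.33-fold rise (log2 fold change 2.42 ± 0.1 SE, adjusted p = 2.3e-18). In B16F10 it reached 59.1 and 57.7 CPM, a 2.81-fold rise (1.49 ± 0.0676 SE, adjusted p = 1.4e-17). The rise was smaller in B16F10 than in B16F0 on the log2 scale (difference -0.93 ± 0.124 SE, adjusted p = 8.3e-07), although the treated level was highest in B16F10. Treated Melan-A held only 18 and 10 counts (0.252 and 0.133 CPM); this passed the test narrowly (log2 fold change 1.07 ± 0.438 SE, adjusted p = 0.045) and did not pass without a filter (adjusted p = 0.1), in a separate fit of Melan-A (0.16), or without the first Melan-A SX-682 library (log2 fold change 0.563, adjusted p = 0.5). The 6 listed genes of the ATF4 pathway that also acts on Gdf15 (Atf4, Ddit3, Atf3, Trib3, Chac1, Asns) rose in all 3 lines, where 11.3% of all genes did. Their median log2 fold change was 1.56 for Melan-A, 1.69 for B16F0 and 2.87 for B16F10. These 6 genes were chosen with earlier results of these data known. Their part in the rise of Gdf15 was not tested.

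Eda2r, which encodes a receptor of the TNF receptor superfamily for the ligand ectodysplasin A2, was the lowest of the 10 genes per length in every line. Melan-A held 0 and 3 counts untreated and 4 and 0 counts with SX-682, which is at or near the floor, so no fold is given there. Untreated B16F0 held 78 and 47 counts (1.04 and 0.699 CPM) and untreated B16F10 488 and 527 counts (8.07 and 8.25 CPM). The ratio to Melan-A was 51.9 for B16F0 (95% exact counting interval 17.4 to 255) and 482 for B16F10 (164 to 2340). These intervals cover counting error only. Eda2r passed the filter on low counts through its B16 libraries, so these ratios are a description and support no difference from Melan-A. With SX-682 the level was 1.82 and 1.72 CPM in B16F0, a 2.03-fold rise (log2 fold change 1.02 ± 0.246 SE, adjusted p = 0.00087). In B16F10 it was 8.13 and 7.06 CPM, where the groups overlapped (-0.10 ± 0.179 SE, adjusted p = 0.69), and the 2 changes differed (B16F10 minus B16F0 -1.12 ± 0.304 SE, adjusted p = 0.005).

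**Figure D2:**
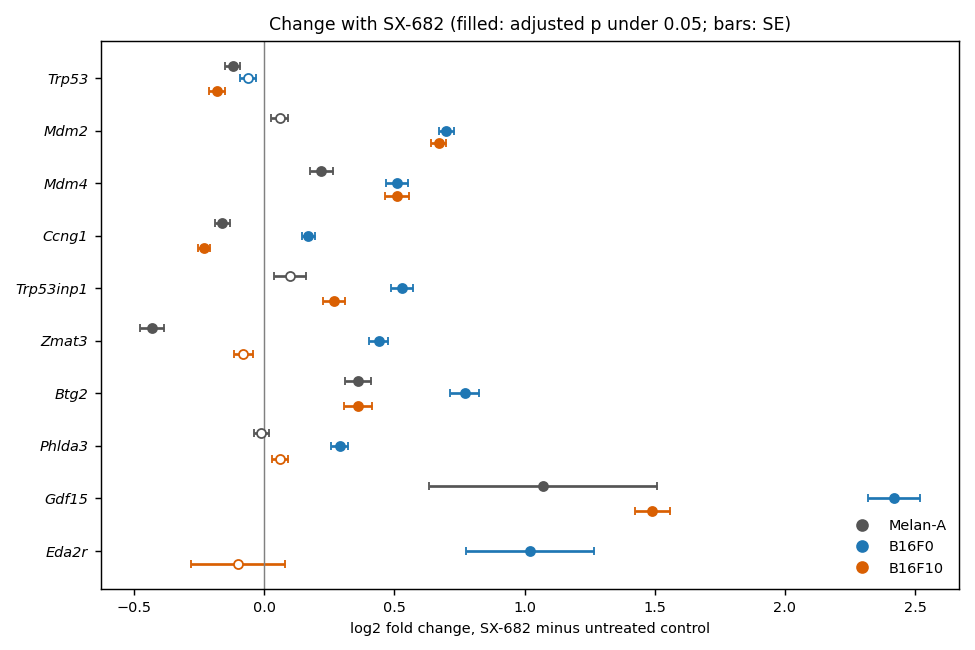
Change of the 10 genes with SX-682 in each line, as log2 fold change against the untreated control with its SE; filled symbols have an adjusted p under 0.05, and no value is drawn for Eda2r in Melan-A, where counts were at or near the floor. The B16F0 symbols lie to the right of 0 for every gene but Trp53, and Ccng1 and Zmat3 lie on opposite sides of 0 in different lines.

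Across the 10 genes, SX-682 was followed by the most uniform rise in B16F0. There 9 of 10 rose and 0 fell by edgeR; Trp53, at -0.06, was the one that missed the threshold (unadjusted p = 0.049), and DESeq2 also called 0 lowered. This compares with 50.1% of all genes called in B16F0, 25.1% higher and 25% lower. In B16F10, 5 rose (Mdm2, Mdm4, Trp53inp1, Btg2, Gdf15) and 2 fell (Trp53, Ccng1), or 3 with Zmat3 under the alternatives named for it, where 50.8% of all genes were called, 25.5% higher and 25.3% lower. In Melan-A, 3 rose (Mdm4, Btg2, Gdf15) and 3 fell (Trp53, Ccng1, Zmat3), where 48.2% of all genes were called, 23.4% higher and 24.7% lower, so the share called in Melan-A was near that of all genes. Mdm4, Btg2 and Gdf15 were the 3 genes raised in every line, a pattern shown by 11.3% of all genes, and no member was lowered in every line, a pattern of 11.7%. The Gdf15 call in Melan-A rests on 7 to 18 counts per library and was narrow (edgeR adjusted p = 0.045). It was lost without a filter and in a separate fit. Gdf15 passed the filter through its B16 libraries, so its place among the genes raised in Melan-A and in every line supports nothing here. The median log2 fold change was 0.52 in B16F0 and 0.17 in B16F10 over the 10 genes and 0.06 in Melan-A over the 9 with a fold, against 0.00 over all genes in each line.

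The size of the change differed among the 3 lines for 9 of the 10 genes, where 47.4% of all genes tested differed. Against Melan-A, the change was more positive in B16F0 for 8 genes (all but Trp53 and Eda2r), where 34.4% of all genes differed, 17.7% with a more positive change. The 8 include Gdf15, which held 7 to 18 counts per Melan-A library and passed the filter through its B16 libraries, so its difference supports nothing here. The change was more positive in B16F10 than in Melan-A for 3 (Mdm2, Mdm4, Zmat3), where 33.8% differed, 17.8% with a more positive change. Between the melanoma lines, 8 of the 10 changes were lower in B16F10 than in B16F0 and 0 were higher, also at an unadjusted p under 0.05, where 30.3% of all genes differed, 15.3% higher and 14.9% lower. The exceptions were Mdm2 and Mdm4, with unadjusted p-values of 0.38 and 0.99.

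Levels can be compared between genes only per length, and CPM were divided by kilobases of the union of each gene's exons. In untreated Melan-A, Phlda3 (140 CPM per kilobase) was followed by Trp53 (38.9), Mdm2 (14.9), Ccng1 (14.5) and Btg2 (10.2). Mdm4 (2.48 ± 0.0602 SD), Trp53inp1 (2.19 ± 0.132 SD) and Zmat3 (2.18 ± 0.094 SD) came next, and the last 2 of these did not differ beyond their spread. In untreated B16F0, Ccng1 (103 CPM per kilobase) moved up to stand next to Phlda3 (123), and Mdm2 (33.6 ± 0.797 SD) stood above Trp53 (29.9 ± 0.581 SD). In B16F10, the order was Phlda3 (233), Ccng1 (145), Trp53 (44.2), Mdm2 (41.4), Trp53inp1 (16.6) and Gdf15 (11.2), with Zmat3, Btg2, Mdm4 and Eda2r below. With the longest transcript as the length, neighbours exchanged places in each line, among them Mdm2 and Trp53 in B16F10 (67 against 54.5 CPM per kilobase), so that order rests on the length used.

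**Figure D3:**
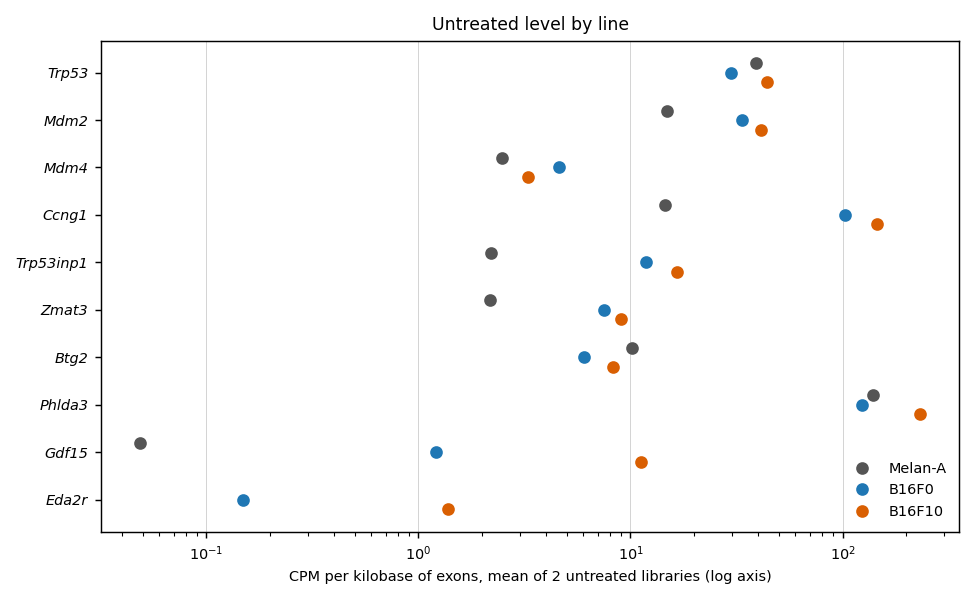
Untreated level of the 10 genes in CPM per kilobase of exons, on a log axis, as the mean of 2 libraries per line; Eda2r in Melan-A is not drawn because it was at or under the floor of 3 counts per library. Phlda3 holds the highest level in each line, and Gdf15 spans 0.0486 in Melan-A to 11.2 in B16F10.

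The other p53 targets and regulators set these genes in their pathway. Of 33 further p53 targets, 32 were tested, and 16 were raised by SX-682 and 8 lowered in Melan-A, 21 and 7 in B16F0, and 16 and 8 in B16F10. Their median log2 fold change over those with a fold was 0.16, 0.32 and 0.17. Over all genes, between 23.4% and 25.5% were called in each direction in a line. A rise in all 3 lines was seen for 13 targets and a fall in all 3 for 3, where 11.3% of all genes rose and 11.7% fell in all 3, so the falls were near the share of all genes. All 5 DNA repair targets (Ddb2, Xpc, Polk, Rrm2b, Ercc5) rose in Melan-A and in B16F0 and 4 of them in B16F10, Polk being the exception (0.11). Among 9 tested cell death targets, 1 rose and 2 fell in Melan-A, 5 rose and 3 fell in B16F0, and 2 rose and 4 fell in B16F10. Of 6 arrest targets, 4 rose and 2 fell in Melan-A, 5 and 1 in B16F0, and 4 and 0 in B16F10. Of 5 metabolism targets, 3 rose and 1 fell in Melan-A, 2 and 1 in B16F0, and 3 and 1 in B16F10. Of 7 feedback and other targets, 3 rose and 3 fell in Melan-A, 4 and 2 in B16F0, and 3 and 3 in B16F10.

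The arrest gene Gadd45a and the death gene Bbc3, which encodes PUMA, changed most among the targets raised in every line. Gadd45a held 87 and 83.5 CPM in untreated Melan-A against 197 and 196 CPM with SX-682, 40 and 38.4 against 202 and 206 CPM in B16F0, and 42.7 and 42.7 against 301 and 310 CPM in B16F10. Its log2 fold change was 1.21 ± 0.0297 SE, 2.38 ± 0.0329 SE and 2.84 ± 0.0328 SE. The rise of Bbc3 was 2.66-fold for Melan-A, 4.33-fold for B16F0 and 4.23-fold for B16F10, from 10.5, 18.2 and 15.6 CPM in the controls. Ddit4, which encodes an mTOR inhibitor, rose by 0.38, 0.84 and 1.97 on the log2 scale. These 3 genes are, like Gdf15, also known to respond to the ATF4 and CHOP stress pathway, whose part here was not tested. Tigar, a phosphatase gene of sugar metabolism, fell in every line (log2 fold change -0.98, -0.55 and -1.13), as did Ei24 (-0.36, -0.30 and -0.50) and Ptp4a3 (-0.23, -0.25 and -0.66).

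Cdkn1a encodes the cell cycle inhibitor p21. It held 192 and 192 CPM in untreated Melan-A, 742 and 697 CPM in B16F0 and 497 and 495 CPM in B16F10. With SX-682 it held 268 and 265 CPM, 998 and 963 CPM, and 500 and 502 CPM. Cdkn1a thus rose 1.39-fold in Melan-A (log2 fold change 0.48 ± 0.0256 SE) and 1.36-fold in B16F0 (0.45 ± 0.0246 SE), while the value in B16F10 was 0.02 ± 0.0249 SE (adjusted p = 0.65), and the change differed among the lines (adjusted p = 3e-12). Untreated, the targets with the largest mean of the B16F0 and B16F10 log2 differences from Melan-A, in absolute size, were Epha2, a receptor kinase gene at 220 and 216 CPM in Melan-A and 4.86 to 19.1 CPM in B16, and Pidd1, a gene of the caspase-2 complex at 4.04 and 3.19 CPM in Melan-A and 17.6 to 19.9 CPM in B16.

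**Figure D4:**
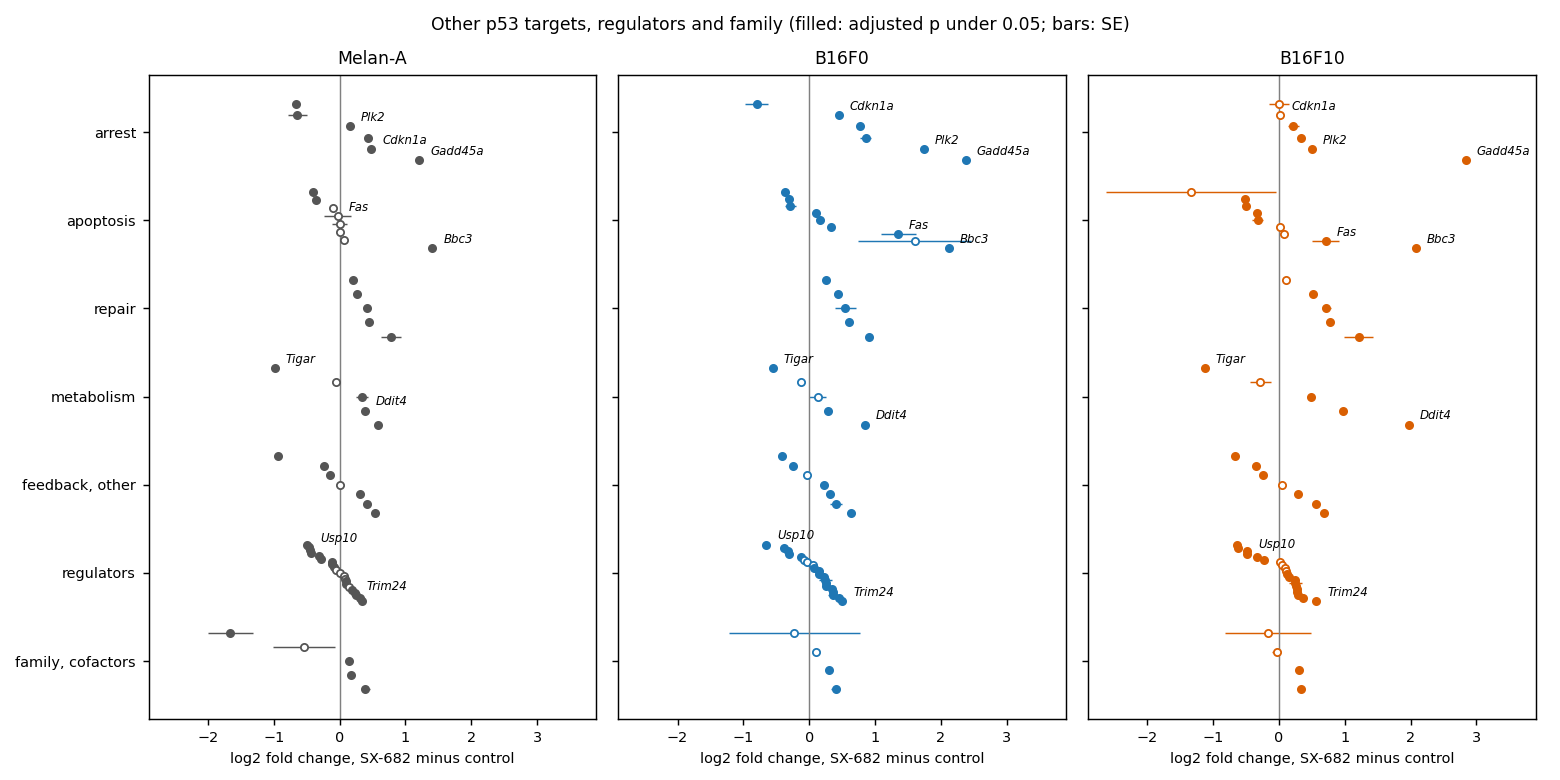
Log2 fold change with SX-682 (with SE) of the other p53 targets by function and of the regulators and p53 family, in one panel for each line; filled symbols have an adjusted p under 0.05. Gadd45a and Bbc3 lie far to the right of 0 in all panels, Tigar to the left, the regulators lie between -0.65 and 0.57, and the lowest family point in Melan-A is Trp63 at -1.66.

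Of 26 regulators, family members and cofactors of p53, all tested, 10 rose and 10 fell in Melan-A, 14 rose and 5 fell in B16F0, and 12 rose and 6 fell in B16F10. Over all genes 23.4% were higher and 24.7% lower in Melan-A, 25.1% and 25% in B16F0 and 25.5% and 25.3% in B16F10, and the falls in the B16 lines were near these shares. Those raised in every line were 5, led by Trim24, a ubiquitin ligase for p53 (log2 fold change 0.25, 0.50 and 0.57), Rpl5, a ribosomal protein gene whose product binds MDM2 (0.31, 0.25 and 0.37), and Ppp1r13b, the ASPP1 cofactor gene (0.15, 0.30 and 0.33). Those lowered in every line were 4, led by the deubiquitinase gene Usp10 (-0.46, -0.65 and -0.48), the checkpoint kinase gene Chek1 (-0.44, -0.30 and -0.63) and the deubiquitinase gene Usp7 (-0.45, -0.32 and -0.49), whose product acts on both p53 and MDM2. Over all genes, 11.3% rose and 11.7% fell in all 3 lines, so the 4 falls were near the share of all genes.

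Cdkn2a, the locus of p16 and of p19ARF, the inhibitor of MDM2, held counts in the Melan-A libraries only. It held 187 and 187 CPM in untreated Melan-A and 215 and 212 CPM with SX-682, and 0 counts in each of the 8 B16 libraries. Against the floor of 3 counts per library, untreated Melan-A was at least 4190-fold higher than B16F0 and at least 3770-fold higher than B16F10. Cdkn2a passed the filter on low counts through its Melan-A libraries, so these bounds are a description and support no difference between the lines. Gene-level counts do not separate the p16 and p19ARF transcripts. The p53 relative Trp63 held 219 and 187 counts in untreated Melan-A and at most 3 counts in any B16 library, and in Melan-A it fell to 54 and 52 counts with SX-682 (log2 fold change -1.66 ± 0.344 SE, adjusted p = 0.0002). Trp63 also passed the filter through Melan-A, and its contrast with B16 is a description only.

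By correlation of log2 CPM over the 12 libraries among 11686 genes, the genes most like Mdm2 were Cat (r = 0.997), Tmem250-ps (r = 0.997), Lims1 (r = 0.996) and Zfp185 (r = 0.995). Those most like Trp53 were Masp1 (r = 0.993), Tmem164 (r = 0.987), Cp (r = 0.987) and Art3 (r = 0.982). The 12 points are pairs of libraries from 6 groups that share 3 lines, and the correlation is given as a description.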

How the data were processed

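RNA was sequenced from Melan-A, B16F0 and B16F10 cells, untreated or given SX-682, with 2 libraries per group. The authors deposited raw read counts per gene without normalization, on GRCm38 (mm10) coordinates with a length per gene. The submitters' processing notes name cutadapt, STAR and DESeq2 without roles or versions. Which program counted the reads, and whether it used strand, is not given in the sources used here. Identifier, coordinates and exon-union length matched GENCODE M21 for 33821 of the 34513 genes, and no member shared exonic bases with another gene.

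Groups came from the sample titles. Counts were fitted with edgeR 4.0.16 in R 4.3.3 (TMM scaling, edgeR's expression filter, prior count 0.125, no block, quasi-likelihood F-test, Benjamini-Hochberg at 0.05); residual degrees of freedom were 6 and prior degrees of freedom 21.9. SE is the fold change over the root of F. Contrasts were SX-682 against control in each line, untreated lines in pairs, and the difference of the SX-682 changes between lines or among all 3. Replicates differed by more than sampling noise (chi-square per gene 2.817 to 4.968). Each library counted as a sample, although that spread does not show that the 2 libraries of a group are separate cultures. An exact permutation with 2 against 2 libraries cannot go below p = 0.333, and the tests draw on a spread estimated over all genes.

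Genes named are the 10 members; Cdkn1a, Bbc3 and Cdkn2a; and in each of the lists of other targets and of regulators the 3 largest rises and falls shared by all lines and the 2 largest untreated differences. The DNA repair targets and the ATF4 genes are given as whole lists. The members and lists were chosen with earlier results of these data known. Alternatives were DESeq2 1.42.0, RLE and upper-quartile scaling, all genes unfiltered, a minimum of 10 counts per library, separate fits, the replicate number as a block, an adjusted p under 0.01, a log2 limit of 0.5, a prior count of 2, and each of 12 libraries left out. The fit was tested on simulated data.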

Additional observations from a re-analysis of the deposited data

Results flagged for a closer look

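The SX-682 change of 9 of the 10 genes differed between lines in a direct test of that difference, where 47.4% of all genes tested differed. From the lowest to the highest line, the log2 fold change spanned 1.35 for Gdf15 and 0.87 for Zmat3. It spanned 0.65 for Mdm2, 0.43 for Trp53inp1, 0.42 for Btg2 and 0.40 for Ccng1. The narrowest spans that passed were 0.30 for Phlda3 (adjusted p = 3.4e-06) and 0.29 for Mdm4 (adjusted p = 0.0003). For Eda2r, which had no fold in Melan-A, the change in B16F10 minus that in B16F0 was -1.12 (adjusted p = 0.005). The lowest end of the Gdf15 span is the Melan-A value that rests on 7 to 18 counts per library. Zmat3 and Ccng1 are the genes called in opposite directions in different lines, both lowered in Melan-A and raised in B16F0.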

How the results depend on the processing

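All counts of genes called stayed within 1.5 times their value under every alternative except the added log2 fold change limit of 0.5. The share of all genes was not taken at that limit or with a library left out. The counts below therefore stand without one. With that limit, the members raised were 1 in Melan-A and 3 in B16F10, and those lowered 0 in both. In B16F0, Ccng1 (0.17), Phlda3 (0.29) and Zmat3 (0.44) no longer counted as raised. Untreated, 1 member was lower in B16F0 than in Melan-A, 0 in B16F10 than in Melan-A and 0 in B16F10 than in B16F0, and 5 were higher in B16F10 than in B16F0. The change differed for 3 members between B16F0 and Melan-A, 1 between B16F10 and Melan-A and 3 between the B16 lines. Other targets raised were 5 in Melan-A and 11 in B16F0, and those lowered were 4, 2 and 3 in Melan-A, B16F0 and B16F10; regulators raised were 0, 1 and 1 and lowered 1, 1 and 2 in that order of lines.

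Leaving out 1 library at a time gave 2 to 4 members raised for Melan-A, 9 for B16F0 and 5 for B16F10, and 8 to 10 that differed among the lines. The Gdf15 rise in Melan-A was lost in 5 of these fits. Phlda3 in Melan-A, at -0.01, turned to 0.02 with upper-quartile scaling, 0.021 without the second control, 0.008 without the second SX-682 library, and 0.000 in 3 fits without a treated B16 library, a range of -0.028 to 0.021 over the libraries left out. Untreated B16F10 minus Melan-A had an all-gene median of -0.1 with TMM and -0.16 with DESeq2.

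Replicate numbers did not pair the libraries: deviations of same-numbered libraries correlated at -0.00272 (Melan-A), 0.0301 (B16F0) and 0.0109 (B16F10). With the number as a replicate block, the Gdf15 rise in Melan-A (1.067, adjusted p = 0.054) was lost and the Zmat3 fall in B16F10 (-0.085, adjusted p = 0.041) passed, and the members called stayed at 9 raised in B16F0. Counting limits bear on Eda2r and Gdf15 in Melan-A, where a library held 0 to 18 counts.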
